A study of Ovis aries with 8 samples.

Results

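HIF1A encodes the oxygen-regulated subunit of hypoxia inducible factor 1 (HIF-1), and VEGFA, BHLHE40 and MCL1 are genes that HIF-1 is known to switch on. The 4 genes were followed in the pituitary of late-gestation fetal sheep after a short period of low oxygen. The 4 genes were chosen with earlier results of these data known, so their p-values are not those of genes picked blindly. Every probe whose name or description in the scanner files gives one of these genes was taken, and no probe of them was dropped on its values. The array held 7 such probes, 2 each for HIF1A, VEGFA and MCL1 and 1 for BHLHE40, among 15008 probes, of which 1409 could be given 1 of 868 gene names. Total RNA of each whole pituitary, anterior and posterior lobes together, was labelled with Cy3 and hybridised to 1 Agilent 1-colour ovine array, so that each array stands for 1 fetus.

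The hypoxia group comprised 4 fetuses whose ewes breathed air diluted with nitrogen for 30 min, and death followed 60 min from the start of the nitrogen. In the normoxia group, also of 4 fetuses, the ewes carried the same tracheal catheter but no nitrogen was run. Both groups were chronically catheterized and were studied awake, and each held 3 males and 1 female. The hypoxic fetuses were older, at 130.8 ± 1.26 days of gestation against 126.5 ± 2.65 (SD over 4 fetuses; two-sided p = 0.0571 by an exact permutation test). The 8 arrays were spread over 2 slides, with 2 hypoxia and 2 normoxia arrays on each. Every hypoxia array had a lower median spot signal than every normoxia array, at 269.6 ± 30.0 and 346.3 ± 29.2 (SD over 4 arrays; p = 0.0286 by the same exact test, below which 4 arrays against 4 cannot go). One protocol text speaks of the hypothalamus, whereas all tissue labels and the methods speak of the pituitary. The anterior lobe hormones PRL (prolactin) and GH1 (growth hormone), the brightest markers of that lobe, differed between the groups by -0.03 (SE 0.07) and 0.01 (SE 0.07) on the log2 scale, with PRL at 18.94 after hypoxia and 18.97 in normoxia. Quantile normalization tends to give probes this bright nearly the same value on every array. These differences therefore cannot show how much anterior lobe each sample held.

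HIF-1 is a dimer of HIF1A with ARNT, a subunit whose abundance does not depend on oxygen. While oxygen is present, prolyl hydroxylases mark HIF1A protein for capture by VHL and destruction, and when oxygen falls the protein escapes, enters the nucleus and binds hypoxia response elements. The control is thus mainly on the protein, which an mRNA array does not measure, and target transcripts are the usual readout of HIF-1 activity. VEGFA makes vascular endothelial growth factor, which drives vessel growth and permeability. BHLHE40 (DEC1) is a basic helix-loop-helix repressor that acts in the circadian clock as well as in hypoxia, and MCL1 is an anti-apoptotic protein of the BCL2 family with a short-lived mRNA and protein.

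The probe sequences are shown because they decide how far the probes of a gene are separate measurements. Each probe is 60 bases long and is written 5′ to 3′, with the bases that it shares with the gene's other probe in capitals.

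HIF1A A_70_P041636: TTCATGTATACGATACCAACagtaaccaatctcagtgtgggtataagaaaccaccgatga

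HIF1A A_70_P041637: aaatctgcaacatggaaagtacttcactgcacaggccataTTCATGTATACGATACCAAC

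VEGFA A_70_P050921: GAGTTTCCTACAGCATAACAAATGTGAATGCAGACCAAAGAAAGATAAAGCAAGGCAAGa

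VEGFA A_70_P050922: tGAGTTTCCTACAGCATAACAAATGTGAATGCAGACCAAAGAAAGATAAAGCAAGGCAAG

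BHLHE40 A_70_P011336: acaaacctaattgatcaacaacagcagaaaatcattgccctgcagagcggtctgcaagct

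MCL1 A_70_P031646: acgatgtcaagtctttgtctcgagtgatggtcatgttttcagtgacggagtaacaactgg

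The HIF1A probes lie at positions 506 to 565 and 466 to 525 of the same transcript sequence and share 20 bases. The VEGFA probes lie at positions 356 to 415 and 355 to 414 of theirs and share 59 bases, so that they are close to 1 measurement made at 2 spots. The BHLHE40 probe lies at positions 321 to 380 of its transcript sequence. The MCL1 probes were designed on 2 different cDNA sequences, at positions 790 to 849 for A_70_P031646 and 793 to 852 for A_70_P016391, which the array names MCL-1 and whose first 30 bases are cccactgaattcataacttctatagtgtta. No other probe on the array shared 20 bases or a target with any of the 7. All 7 probes were well above background on all 8 arrays, passed the filter on dim probes and were never saturated. The HIF1A, BHLHE40 and lesser MCL1 spots were dim, between 89.8 and 226.7 signal units, whereas the VEGFA spots lay between 447.9 and 1201.

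Of the 4 genes, BHLHE40 and MCL1 rose after hypoxia at limma's unadjusted threshold of 0.05, by 0.34 and 0.24 log2 units. MCL1 did so at 1 of its 2 probes, and the other rose by 0.12 without passing the threshold. HIF1A mRNA was lower at both of its probes, by 0.20 and 0.19 log2 units, and 1 of the 2 probes passed the same threshold. VEGFA did not pass it at either probe. Values are normalized log2 intensities, and a difference is always hypoxia minus normoxia on that scale. An offset of 50 signal units is part of the values, which makes the differences of dim probes smaller than they would be without it. Over all 13036 retained probes 7.46% were called higher and 11.0% were called lower and the median difference was -0.005. A count of 2 genes in 4 is too small to be read against these shares. None of the 7 probes had a limma adjusted p below 0.201.

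**Figure D1:**
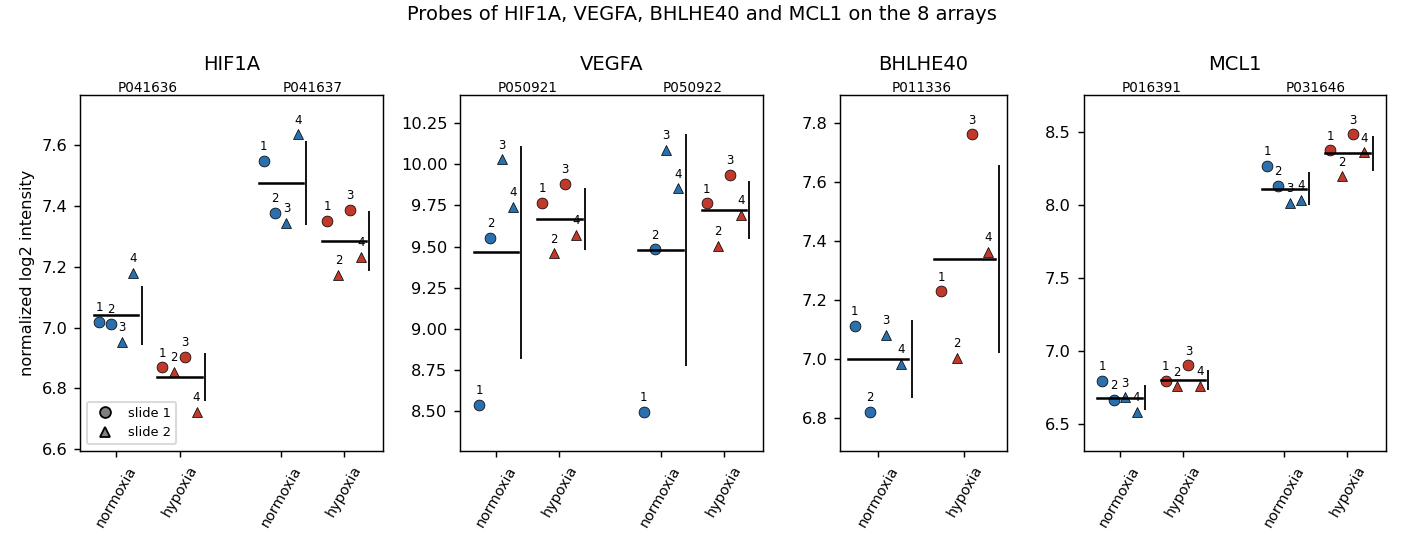
Normalized log2 intensity (vertical axis, a separate scale per gene) of the 7 probes on the 4 normoxia arrays (blue) and the 4 hypoxia arrays (red), with the replicate number at each point, the slide as the symbol, the mean as a horizontal line and 1 SD as a vertical line. HIF1A A_70_P041636 is the one probe whose groups do not overlap, and normoxia replicate 1 lies far below the other arrays for VEGFA.

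HIF1A was read most brightly by A_70_P041637, with values of 7.35, 7.17, 7.39 and 7.23 in hypoxia replicates 1 to 4. The normoxia replicates 1 to 4 had 7.55, 7.38, 7.34 and 7.63. Normoxia replicates 1 and 4 stood above all hypoxia arrays, while normoxia replicates 2 and 3 lay among the hypoxia values, so that the groups overlapped. The means were 7.28 ± 0.10 and 7.47 ± 0.14 (SD, n = 4 each), a difference of -0.19 (SE 0.09, 95% interval -0.40 to 0.02). It did not pass the threshold (limma p = 0.0675, limma adjusted p = 0.308), and the exact permutation test over the 8 arrays gave p = 0.143, two-sided.

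The other HIF1A probe, A_70_P041636, had 6.87, 6.85, 6.90 and 6.72 in the hypoxia replicates and 7.02, 7.01, 6.95 and 7.18 in the normoxia replicates. Each hypoxia array was below each normoxia array at this probe, which was true of 5.92% of the retained probes. HIF1A fell here by 0.20 log2 units (SE 0.08, limma p = 0.0293, limma adjusted p = 0.216, exact permutation p = 0.0286). The call was lost in 3 of the 8 fits that left out an array, those without hypoxia replicate 2, hypoxia replicate 4 or normoxia replicate 4 (-0.21, -0.17 and -0.16). Among all retained probes the HIF1A differences ranked at percentiles 16.2 and 17.7, counted from the most negative.

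The HIF1A probes agreed in how they ordered the arrays (Pearson r = 0.87, permutation p = 0.0055; Spearman rho = 0.86, permutation p = 0.0107, n = 8 arrays, with adjusted values over the 3 genes with 2 probes of 0.0055 and 0.0107). After each group's mean was taken out r was 0.75, and it was 0.75 without normoxia replicate 4 and hypoxia replicate 4, the arrays farthest from the median. The 20 shared bases mean that these are not fully separate readings. The difference was negative on both slides, at -0.09 on slide 1 and -0.29 on slide 2 for A_70_P041637 and at -0.13 and -0.28 for A_70_P041636. In the 3 males of each group A_70_P041637 differed by -0.26, and the single hypoxic female exceeded the single normoxic female by 0.01. At A_70_P041636 the differences were -0.24 in the males and -0.08 between the females.

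The group difference in HIF1A ran alongside that in fetal age and that in array brightness. Normoxia replicate 4, the youngest fetus at 123 days, gave the highest HIF1A value at both probes. With gestational age as a covariate the HIF1A differences were -0.04 at A_70_P041636 (limma adjusted p = 0.957) and 0.03 at A_70_P041637 (limma adjusted p = 0.977), and with array brightness as a covariate they were -0.09 and -0.01. With the scanner's own processed signal, scaled to the 75th percentile and not quantile normalized, they were -0.49 and -0.47, both called (limma adjusted p = 0.179 for each). With the same 75th percentile scaling of the background-corrected mean signal, A_70_P041636 differed by -0.12 and was not called, while the median of all probes was 0.06. Age, brightness and hypoxia cannot be told apart fully in 8 fetuses.

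VEGFA, a textbook HIF-1 target, varied more between normoxic fetuses than between the groups. At A_70_P050922, the brighter probe, the hypoxia replicates had 9.76, 9.50, 9.93 and 9.69. The normoxia replicates had 8.50, 9.48, 10.09 and 9.85. The 4 hypoxia arrays sat close together in the middle of this range, and normoxia held both the lowest and the highest array. The means were 9.72 ± 0.18 and 9.48 ± 0.70 (SD, n = 4 each), with a difference of 0.24 (SE 0.30, 95% interval -0.43 to 0.91, limma p = 0.433, limma adjusted p = 0.708, exact permutation p = 0.686). A change of up to 0.91 log2 units in VEGFA therefore lay within the interval. The second VEGFA probe, offset by 1 base, gave 0.20 (SE 0.28, limma p = 0.483, limma adjusted p = 0.741), and the probes tracked each other at r = 0.99 (permutation p = 0.00012; Spearman rho = 0.95, permutation p = 0.0011, n = 8 arrays; adjusted p = 0.00037 and 0.0034).

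The sign of the VEGFA difference depended on 1 fetus. Without normoxia replicate 1 the VEGFA difference was -0.08 at A_70_P050922 and -0.11 at A_70_P050921. This array also stood low for the red cell genes (HBB, beta globin, and AHSP, the alpha globin chaperone), whose mean deviation from the probes' overall means was -1.57 there and between -0.61 and 0.67 on the other 7 arrays. Whether this bears on VEGFA was not tested. On slide 1, which carried normoxia replicate 1, the VEGFA difference was 0.86, and on slide 2 it was -0.37. The difference between slides was -1.23 (SE 0.40, an interaction with a limma adjusted p = 0.590 over all retained probes), and each slide holds 2 fetuses of a group. The difference was 0.43 in the males and -0.33 between the 2 females.

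**Figure D2:**
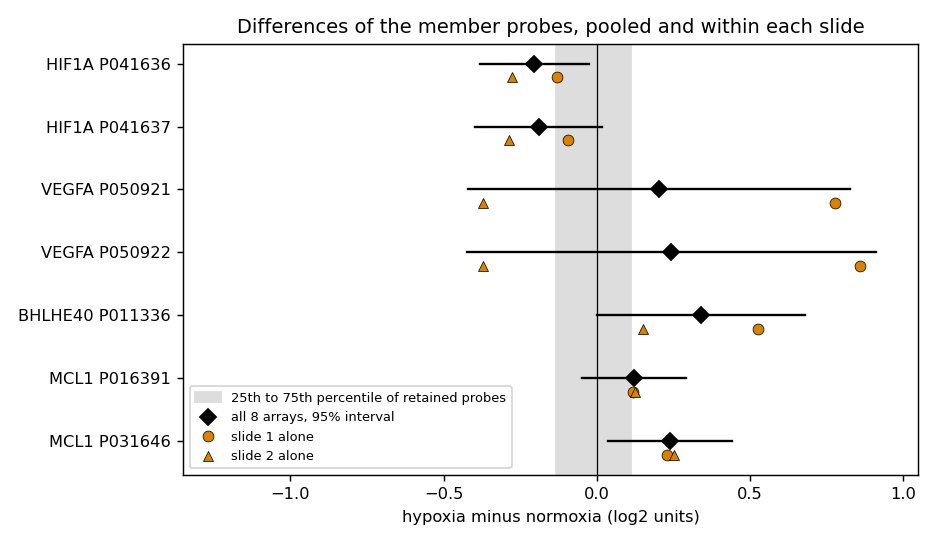
Hypoxia minus normoxia in log2 units for the 7 probes, as the estimate over 8 arrays with its 95% limma interval (black) and as the difference within slide 1 (circle) and slide 2 (triangle), over the 25th to 75th percentile of all retained probes (grey, -0.13 to 0.11). VEGFA is the gene whose slides lie on opposite sides of 0, while the MCL1 slides nearly coincide.

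BHLHE40 rose by 0.34 log2 units, a 1.27-fold difference on the normalized scale. Its values were 7.23, 7.00, 7.76 and 7.36 in the hypoxia replicates and 7.11, 6.82, 7.08 and 6.98 in the normoxia replicates. Hypoxia replicates 1, 3 and 4 exceeded every normoxia array, and hypoxia replicate 2 lay among them. The means were 7.34 ± 0.32 and 7.00 ± 0.13 (SD, n = 4 each). With an SE of 0.15, the 95% interval ran from 8.31e-05 to 0.68 and the limma p was 0.04995 (limma adjusted p = 0.271, exact permutation p = 0.0857). The difference exceeded that of 94.9% of the retained probes.

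The BHLHE40 call was at the threshold, and it held in 1 of the 8 fits that left out an array, the fit without hypoxia replicate 2 (0.45). Without hypoxia replicate 3 the difference was 0.20. It was positive on both slides, at 0.53 on slide 1 and 0.15 on slide 2. It was positive in the males (0.40) and between the females (0.15) as well. With 1 probe for this gene no second probe could be set beside it.

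MCL1 rose by 0.24 log2 units at A_70_P031646, its brighter probe, a 1.18-fold difference. The hypoxia replicates had 8.37, 8.19, 8.48 and 8.36, and the normoxia replicates had 8.27, 8.13, 8.01 and 8.03. The hypoxia arrays of replicates 1, 3 and 4, stood above all normoxia arrays, and hypoxia replicate 2 stood below normoxia replicate 1. The means were 8.35 ± 0.12 and 8.11 ± 0.11 (SD, n = 4 each; SE 0.09, 95% interval 0.04 to 0.44, limma p = 0.0252, limma adjusted p = 0.201, exact permutation p = 0.0571). MCL1 was the steadiest of the 4 genes between slides, at 0.23 on slide 1 and 0.25 on slide 2, and was 0.20 in the males and 0.36 between the females.

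The probe named MCL-1 pointed the same way without passing the threshold. It had 6.79, 6.76, 6.90 and 6.76 in the hypoxia replicates and 6.80, 6.66, 6.68 and 6.58 in the normoxia replicates. All 4 hypoxia arrays were above the normoxia mean of 6.68 ± 0.09, but normoxia replicate 1 exceeded 3 of them. The difference was 0.12 (SE 0.08, limma p = 0.141, limma adjusted p = 0.436, exact permutation p = 0.114). Although the MCL1 probes share no run of 20 bases, they correlated over the 8 arrays (Pearson r = 0.90, permutation p = 0.0026; Spearman rho = 0.86, permutation p = 0.0107; adjusted p = 0.0038 and 0.0107), and r was 0.81 without normoxia replicate 4 and hypoxia replicate 3. The MCL1 call at A_70_P031646 was lost in 4 of the 8 fits that left out an array, those without hypoxia replicate 1, hypoxia replicate 3, normoxia replicate 3 or normoxia replicate 4.

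Because the hypoxia arrays were dimmer as a whole, the spot signal before normalization gave another picture of the same probes. The HIF1A spots were dimmer on every hypoxia array than on every normoxia array at both probes. They lay at 121.0 to 159.2 against 167 to 226.7 for A_70_P041637. The median spot signal was also lower on every hypoxia array, so this order is not separate from array brightness. The MCL1 spots were also dimmer on average in hypoxia, with means of 289.4 and 314.3 at A_70_P031646. The rise in MCL1 appears once the arrays are brought to a common distribution. The VEGFA spots were dimmer on average too, with means of 728.3 against 839.4 at A_70_P050921 and 752.0 against 859.3 at A_70_P050922. The BHLHE40 spots averaged 151.1 in hypoxia and 139.4 in normoxia (0.09 log2 units, exact permutation p = 0.743). Hypoxia replicate 3 had 210.8 there and the other hypoxia arrays 115.0 to 143.5, against 109.8 to 159.8 in normoxia. For MCL1 and VEGFA the direction of the difference is thus relative to the other probes of an array. HIF1A was lower on both scales. The BHLHE40 mean was higher on both, with hypoxia replicate 3 alone above the normoxia range before normalization.

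Hypoxia replicate 3 had the highest value of the 4 hypoxia arrays at all 7 probes, and hypoxia replicate 2 the lowest at 6 of them. These 2 arrays were highest and lowest at 23.2% and 19.2% of the 13014 probes with a value on every array. The 7 probes stand for 4 genes, and the pattern was picked out after the values were seen. Markers of the posterior lobe and glia, and those of skeletal muscle, were likewise highest and lowest in these hypoxia arrays. Anterior lobe markers ran the other way, with mean deviations of -0.05 in hypoxia replicate 3 and 0.09 in hypoxia replicate 2. The endothelial, red cell and neutrophil lists did not have both arrays at those ends. The posterior lobe list had a mean deviation of 0.55 in hypoxia replicate 3 and -0.38 in hypoxia replicate 2, against -0.23 to -0.09 in the normoxia arrays. The skeletal muscle list had 0.01 and -0.20, against -0.06 to 0.46 in the normoxia arrays. Hypoxia replicates 1 and 4 were close to these, at -0.04 and -0.18. The 6 measured genes of the posterior lobe list had higher means after hypoxia, where 48.8% of all probes did, and 2 were called, where 7.46% of all probes were. These were OXT (oxytocin; 0.39, limma adjusted p = 0.156, exact permutation p = 0.0571) and TAC1 (the tachykinin precursor; 1.39, limma adjusted p = 0.251, exact permutation p = 0.114). The paper reports TAC1 as raised after hypoxia by qPCR as well. VIM (vimentin), the list's brightest, differed by 0.14 (SE 0.19), and the uncalled genes of the list lay between 0.03 and 0.18. The part of tissue make-up in the BHLHE40 and MCL1 differences was not tested, and in whole glands fewer cells of a type and less RNA per cell cannot be told apart.

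For the other marker lists, the shares of 7.46% and 11.0% of all probes called higher and lower apply in the same way. Endothelial genes, the cells that carry the VEGF receptors, had mean deviations of -0.02 to 0.01 in hypoxia and -0.13 to 0.20 in normoxia. None of the 5 measured was called, and the brightest, PECAM1 and TIE1, differed by 0.17 (SE 0.15) and 0.04 (SE 0.09). Of 9 anterior lobe genes 1 was called, FSHB (the beta subunit of follicle stimulating hormone; 0.46, limma adjusted p = 0.241, exact permutation p = 0.143). Neutrophil granule genes were lower in 4 of 4, with LYZ (lysozyme; -1.01, limma adjusted p = 0.0866, exact permutation p = 0.0286) and CATHL3 (a cathelicidin; -1.98, limma adjusted p = 0.236, exact permutation p = 0.143) called, and mean deviations from -0.87 to 0.26 in hypoxia and from -0.06 to 1.06 in normoxia. The 2 red cell genes differed by 0.62 (HBB, SE 0.51) and 0.69 (AHSP, SE 0.42). Of 4 skeletal muscle genes 1 was called, CAPN3 (the protease calpain 3; -1.32, limma adjusted p = 0.0866, exact permutation p = 0.0286), while MYLPF, a myosin light chain, differed by 0.37 (SE 0.20).

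The partners and regulators of HIF1A were next compared, 8 of 32 listed genes being named on the array, HIF1A itself among them. None was called higher and 1 was called lower, against 7.46% and 11.0% of all probes, and the list's median difference was 0.01. The called gene was RACK1, a scaffold protein that promotes oxygen-independent loss of HIF1A, at 16.19 ± 0.06 after hypoxia and 16.40 ± 0.14 in normoxia (SD, n = 4 each; -0.20, SE 0.09, limma adjusted p = 0.254, exact permutation p = 0.0857). The dimer partners ARNT and ARNT2 differed by 0.14 (SE 0.26) and 0.06 (SE 0.14), and ARNT was at -0.17 (SE 0.09) without hypoxia replicate 3. The sister subunits EPAS1 (HIF-2 alpha) and HIF3A differed by 0.03 (SE 0.07) and -0.05 (SE 0.15). At ARNT, ARNT2 and HIF3A 1 of 2 kept probes had the sign given, and at EPAS1 2 of 4. CITED2, which competes with HIF1A for its coactivator, differed by -0.01 (SE 0.09), and HSP90AA1, the chaperone that holds HIF1A protein, by 0.14 (SE 0.13).

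**Figure D3:**
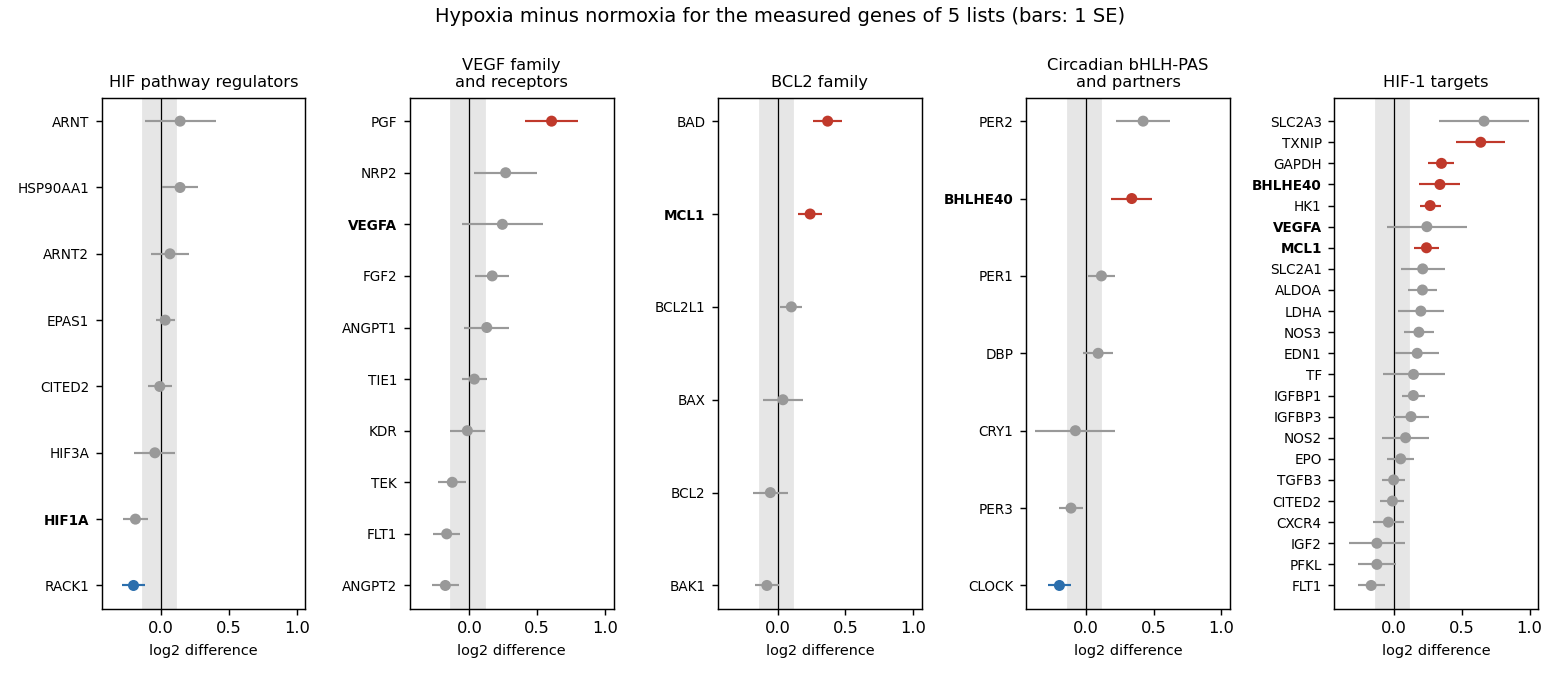
Hypoxia minus normoxia in log2 units (horizontal axis, bars 1 SE) for every measured gene of 5 lists, 1 probe per gene, with genes called higher in red, called lower in blue and not called in grey, the 4 followed genes in bold and the 25th to 75th percentile of all retained probes shaded. HIF1A stands next to the lowest of the regulators, and VEGFA, BHLHE40 and MCL1 stand in the upper part of the HIF-1 targets.

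Around VEGFA, 10 of 17 listed genes of the VEGF and angiopoietin systems were measured, VEGFA itself among them. Against the same 7.46% and 11.0% of all probes, none was called lower and 1 was called higher. This was PGF, placental growth factor, a ligand of the same family that binds the receptor FLT1. PGF rose from 8.28 ± 0.28 in normoxia to 8.88 ± 0.37 after hypoxia (SD, n = 4 each; 0.61, SE 0.20, limma p = 0.0126, limma adjusted p = 0.156, exact permutation p = 0.0286), and its groups did not overlap, as was true of 4.24% of all probes in this direction. The VEGF receptors KDR and FLT1 differed by -0.01 (SE 0.13) and -0.17 (SE 0.10), and the coreceptor NRP2 by 0.27 (SE 0.23), which was -0.01 (SE 0.08) without hypoxia replicate 4. The angiopoietins ANGPT1 and ANGPT2 differed by 0.13 (SE 0.17) and -0.18 (SE 0.10), and their receptor TEK and its relative TIE1 by -0.13 (SE 0.10) and 0.04 (SE 0.09). FGF2, another angiogenic factor, differed by 0.17 (SE 0.12). The median of the list was 0.08. The sign given was that of 2 of 4 kept probes at KDR and of 1 of 2 at ANGPT1 and TIE1.

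BHLHE40 belongs with the clock repressors, and of 18 listed circadian genes 7 were measured. Besides BHLHE40, CLOCK was called, in the other direction, which makes 1 of 7 each way against 7.46% and 11.0% of all probes. CLOCK, the activator whose E-box targets BHLHE40 represses, fell from 6.96 ± 0.11 to 6.77 ± 0.09 (SD, n = 4 each; -0.19, SE 0.08, limma adjusted p = 0.260, exact permutation p = 0.0857). The repressors PER1, PER2 and PER3 differed by 0.12 (SE 0.10), 0.42 (SE 0.20) and -0.11 (SE 0.08), and PER2 had the largest difference of the list without passing the threshold (limma adjusted p = 0.302). CRY1, a further repressor, differed by -0.08 (SE 0.29) and DBP, an output gene of the clock, by 0.09 (SE 0.11). For CRY1 1 of 2 kept probes had the sign given.

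For MCL1, 6 of 19 listed BCL2 family genes were measured and 2 were called higher, against 7.46% of all probes. Besides MCL1, the pro-apoptotic BAD was called, rising from 11.24 ± 0.13 to 11.61 ± 0.18 (SD, n = 4 each; 0.37, SE 0.11, limma adjusted p = 0.127, exact permutation p = 0.0571). The anti-apoptotic BCL2 and BCL2L1 differed by -0.05 (SE 0.13) and 0.10 (SE 0.08), and the pore-forming BAX and BAK1 by 0.04 (SE 0.15) and -0.08 (SE 0.09). For BAK1 1 of 2 kept probes had the sign given. The called genes of this family thus comprised 1 that protects against apoptosis and 1 that promotes it.

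Of 67 listed HIF-1 targets 23 were measured, 17 with a higher and 6 with a lower mean after hypoxia. The 17 include VEGFA, BHLHE40 and MCL1, and the list was chosen with earlier results of these data known. The 23 targets had a median difference of 0.17, where the median of all retained probes was -0.005 and 48.8% of them were above 0. Called higher were 5 of the 23 and called lower none, beside 7.46% and 11.0% of all probes. BHLHE40 and MCL1 were 2 of the 5, and the others act in or on glucose use. These were TXNIP (0.64, SE 0.18), an inhibitor of glucose uptake, GAPDH (0.35, SE 0.10) and HK1 (0.27, SE 0.08), both enzymes of glycolysis, with limma adjusted p of 0.121, 0.115 and 0.127. The groups did not overlap for TXNIP, GAPDH and HK1, whereas they did for the 4 followed genes at their brightest probes. Of the rest, the smallest p-values belonged to the glucose transporter SLC2A3 (0.66, SE 0.33) and the glycolytic enzyme ALDOA (0.21, SE 0.11). Next came IGFBP1, which binds insulin-like growth factors (0.14, SE 0.08), the VEGF receptor FLT1 (-0.17, SE 0.10) and the endothelial nitric oxide synthase NOS3 (0.18, SE 0.11). The limma adjusted p of these 5 lay between 0.320 and 0.424. For IGFBP1 1 of 3 kept probes had the sign given.

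Under the settings in which the 4 genes were recomputed, MCL1 and BHLHE40 stayed above 0, at 0.20 to 0.35 and 0.15 to 0.57, and their calls came and went.

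**Figure D4:**
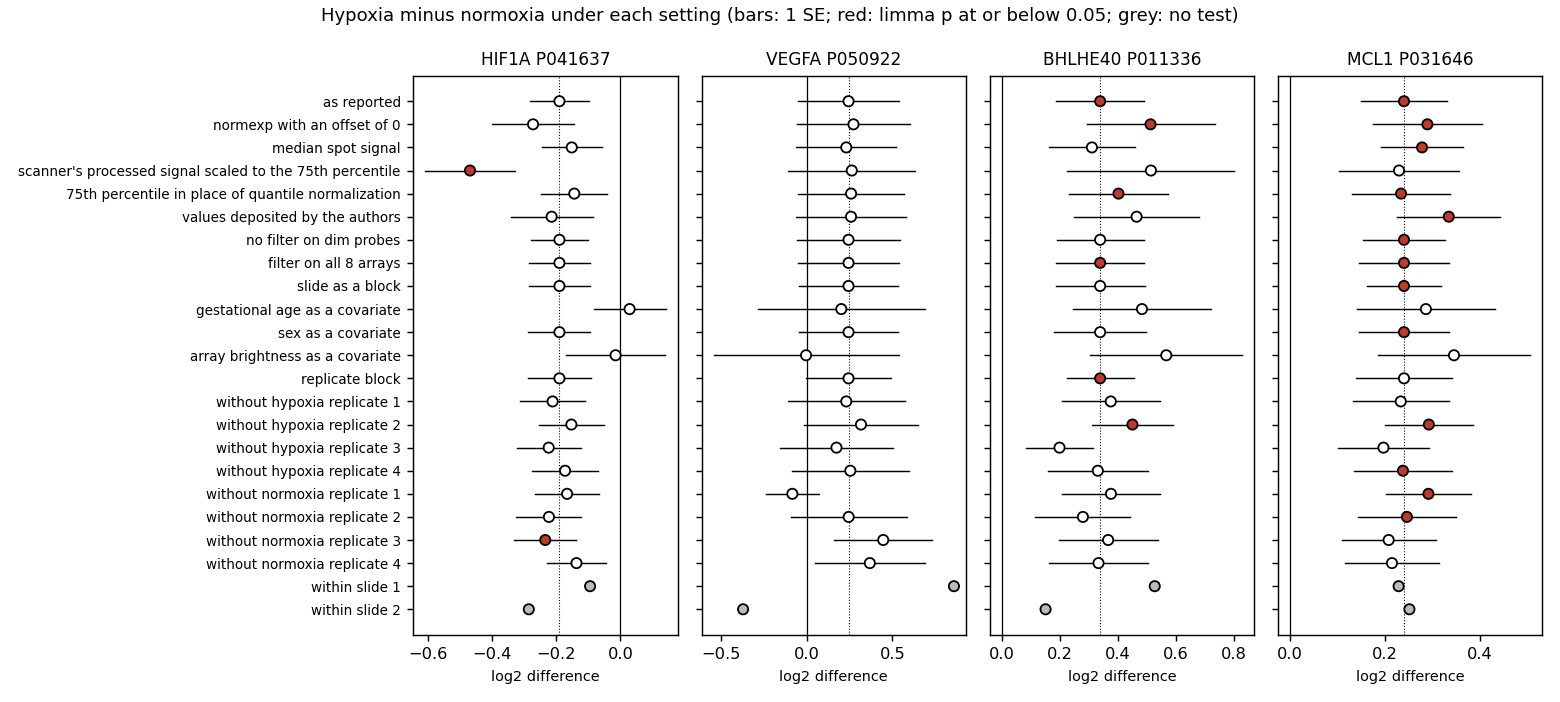
Hypoxia minus normoxia in log2 units (horizontal axis, a separate scale per gene, bars 1 SE) for the brightest probe of each gene under each processing setting, each covariate, each array left out and within each slide, with red points for a limma p at or below 0.05, white for a higher p and grey for no test. MCL1 and BHLHE40 stay above 0 under every setting shown, HIF1A reaches 0.03 with gestational age as a covariate, and VEGFA crosses 0 without normoxia replicate 1 and on slide 2 and lies at -0.0049 with array brightness as a covariate.

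Likeness to the 4 genes over the 8 arrays was ranked among 774 named genes by Pearson's r, as a description of 8 arrays that share a processing. BHLHE40 was most alike to NFKBIA (r = 0.93), the inhibitor of NF-kappa-B, SLC4A4 (r = 0.92), a sodium bicarbonate cotransporter, and JUNB (r = 0.92), an AP-1 subunit. NFKBIA and JUNB were both called, at 1.35 and 1.09 log2 units higher after hypoxia, where 7.46% of all probes were called higher. The r includes the group difference, so genes alike to a member tend to share its direction. MCL1 was most alike to CDKN1C, a cyclin dependent kinase inhibitor, PLIN2, a lipid droplet protein, and SLC4A4, each at r = 0.90. CDKN1C and PLIN2 were called higher as well, at 0.81 and 0.42, and SLC4A4 was not called (0.08). HIF1A was most alike to YWHAH, a 14-3-3 protein (r = 0.93), PGFS, a prostaglandin F synthase (r = 0.92), and H2AZ1, a histone variant (r = 0.91), which differed by -0.24, -0.25 and -0.25. YWHAH and H2AZ1 were called lower, where 11.0% of all probes were. VEGFA was most alike to the interleukin 13 receptor IL13RA1 (r = 0.93), the metalloproteinase inhibitor TIMP3 (r = 0.93) and EEF1E1, a factor of the aminoacyl-tRNA synthetase complex (r = 0.91), which differed by 0.09, 0.14 and 0.14.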

How the data were processed

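The authors deposited, for each of 8 Agilent 1-colour arrays, the scanner's spot intensity as read by Agilent Feature Extraction 10.1.1.1, together with 12956 rows of log2 values that they had background-corrected, quantile normalized and filtered for dim probes with limma. The 4 genes and the gene lists were chosen with earlier results of these data known.

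From the intensities, limma 3.58.1 in R 4.3.3 corrected mean spot signals by normexp (offset 50), and the log2 values were quantile normalized. Control and outlier-marked spots were removed. A probe was kept if at least 3 arrays read it 1.1 times brighter than 95% of the negative controls. The 2 groups were compared with lmFit and eBayes over the 13036 kept probes, and a probe was called at an unadjusted p of 0.05, the threshold of the paper, with Benjamini-Hochberg values alongside. Exact permutation tests ran over the 8 arrays. The steps were tested on simulated data.

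Each of 776 named genes kept is represented by its brightest probe. The other kept probe of PRL did not share its sign. Genes of the regulator, VEGF, BCL2 and circadian lists with kept probes of both signs are marked where the list is described. Genes are named in the text if they are members, if they are measured genes of the regulator, VEGF, BCL2 or circadian lists, if they are called HIF-1 targets or the 5 next by p, if they are called or among the 2 brightest of a marker list, or if they are among the 3 most alike to a member. SLC2A1 and LDHA fall outside this rule and are named because 1 array stood apart, which was seen in the data. Between 79.5% and 85.5% of probes per array were well above background, and the number of arrays limits the precision. Alternatives changed the offset, signal, scaling, filter, covariates, gene rule and arrays. Genome positions were not used here.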

Additional observations from a re-analysis of the deposited data

Results flagged for a closer look

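The hypoxia difference of VEGFA differed between the 2 slides before adjustment for the number of probes and not after it, with slide 2 minus slide 1 at -1.15 for A_70_P050921 (limma adjusted p = 0.641) and -1.23 for A_70_P050922 (limma adjusted p = 0.590). On slide 1 the 2 hypoxia arrays were both above the 2 normoxia arrays, and on slide 2 both were below them.

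Of 104 groups of 4 arrays examined, 8 had 1 array set apart from the other 3, and chance sets apart about 1 in 20. The gap to the nearest array, as a share of the group's range, was 0.897 for ARNT in hypoxia, where replicate 3 had 7.59 and the others 6.30 to 6.43. It was 0.924 for NRP2 in hypoxia, where replicate 4 had 7.39 and the others 6.23 to 6.31, and 0.885 for the glucose transporter SLC2A1 in hypoxia, where replicate 2 had 8.96. Normoxia replicate 3 stood apart for ANGPT2 (0.854), PER1 (0.892) and LDHA (0.933, lactate dehydrogenase). Normoxia replicate 4 stood apart for PGF (0.943), at 7.86 with the others at 8.40 to 8.43. Normoxia replicate 1 stood apart for TXNIP (0.844), at 12.88 with the others at 13.55 to 13.67. Without the array set apart, in fits added after seeing the data, SLC2A1 (0.39, limma adjusted p = 0.186) and LDHA (0.36, limma adjusted p = 0.187) were called, and PGF (0.47) and TXNIP (0.45) were still called. ARNT and NRP2 turned to -0.17 and -0.01, and ANGPT2 and PER1 were at -0.09 and 0.04, none of them called.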

How the results depend on the processing

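MCL1 and BHLHE40 kept their direction under every setting, each of which brings the arrays to a common scale. Before normalization the MCL1 spots were dimmer on average in hypoxia. BHLHE40 was no longer called with the median spot signal (0.31), the processed signal at the 75th percentile (0.51), the deposited values (0.47), no filter (0.34), slide as a block (0.34), age (0.48), sex (0.34) or brightness (0.57) as a covariate, and it was 0.20 to 0.45 without 1 array. MCL1 was no longer called with the processed signal (0.23), age (0.29), brightness (0.35) or the replicate block (0.24), and was 0.20 to 0.29 without 1 array. HIF1A at A_70_P041637 was called with the processed signal (-0.47), was 0.029 with age and -0.23 to -0.14 without 1 array. VEGFA at A_70_P050922 was -0.0049 with brightness, 0.86 on slide 1, -0.37 on slide 2 and -0.085 to 0.45 without 1 array; at A_70_P050921 it was -0.37 on slide 2 and -0.11 to 0.39.

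The exact permutation p was 0.0286 for HIF1A with the processed signal and for MCL1 with the median signal, 75th percentile scaling or the deposited values. Without 1 array it was 0.0286 to 0.171 for BHLHE40, 0.0857 to 0.257 for HIF1A, 0.0571 to 0.114 for MCL1 and 0.257 to 0.857 for VEGFA.

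The 5 lists held 8, 10, 6, 7 and 23 measured genes, with several genes in more than 1 list. Genes of the 5 lists called higher numbered 7, with 2 under the age covariate, 1 under brightness and 5 to 9 without 1 array. Those called lower numbered 2, with 1 under an offset of 0, the median signal, the deposited values, slide, age or sex, 0 under 75th percentile scaling, the filter on all 8 arrays or the replicate block, 4 with the mean over a gene's probes and 0 to 3 without 1 array. Over all 13036 kept probes 973 (7.46%) were higher and 1430 (11.0%) lower, with 373 and 445 under age and 263 and 288 under brightness. Under 75th percentile scaling 979 and 976 of 13070 kept probes were higher and lower. These counts over all probes were added after seeing the data, and the causes were not tested. The replicate numbers did not pair the arrays (correlations of deviations -0.05, 0.02, 0.12 and -0.10, with 1 of 4 best matched to its own number). Under the replicate block A_70_P041636 of HIF1A was no longer called either (-0.20). Within a slide there are too few arrays for a test.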
